A study of Mus musculus with 12 samples.

Results

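Untreated F9 cells carrying a Kdm3a knock-down were compared with untreated control F9 cells, gene by gene. F9 is a mouse embryonal carcinoma line that resembles early embryonic stem-like cells and turns into endoderm when given retinoic acid. The comparison rests on 4 arrays of the 12 in the study: 2 of control cells (labelled CTL and, for Kdm3a, WT) and 2 of knock-down cells (labelled pRS-kdm3a), all F9 and all untreated (0 h). The other 8 arrays hold control and knock-down cells at 2 later stages, 72 h and 6 d, with 2 arrays each. At 72 h retinoic acid had been given for 3 days. By 6 d, cAMP had then been given for 3 days. The labels call the arrays of a group biological replicates. They do not say whether the control carries an empty construct, or whether the knock-down is 1 clone or a pool, so clone and knock-down cannot be told apart here.

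Genes were described where their probe had a detection p-value under 0.05 on both arrays of at least 1 of the 2 untreated groups. That held for 8554 of 11621 genes tested. Of these, 7579 were detected on all 4 arrays, 188 in knock-down cells only and 147 in control cells only. A further 399 were detected in control cells and on 1 knock-down array, and 241 in knock-down cells and on 1 control array. Values are normalized log2 intensities, so a difference of 1 is a doubling or halving, and the levels of different genes are not compared.

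Kdm3a removes methyl groups from lysine residue K9 of histone H3, a mark of silenced chromatin. In the mouse it is known for its part in sperm maturation and in fat and energy metabolism. Untreated F9 cells express the pluripotency network (Pou5f1, Sox2, Nanog) and keep the endoderm programme, led by the transcription factor Gata6, largely silent until retinoic acid is added.

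The 4 arrays were of like quality, with 15204 to 16221 of 45281 probes detected (33.6% to 35.8%) and raw median intensities of 124.8 to 216.3. The number of arrays limits the precision. The correlation between replicates was 0.981 for control and 0.978 for knock-down arrays, and between a control and a knock-down array it was 0.975 to 0.980. Among genes detected on all 4 arrays, the median gap between replicates came to 0.21 for control and 0.20 for knock-down cells. The median size of the difference between the group means was 0.16. A mean of 2 arrays varies less than a single array, so the gap and the difference cannot be set against each other directly. Knock-down replicate 2 stood apart in one respect. Over 19450 probes that no array detected, its background pattern had a rank correlation of 0.43 and 0.40 with replicate 2 of the knock-down and of the control cells at 6 d, against 0.28 to 0.34 between arrays at 0 h. Results are therefore also given without it below. The cells carried their defining markers: Pou5f1 read 12.83 and 12.95 in control and 12.54 and 12.80 in knock-down cells, and Zfp42 read 11.71 and 11.56 against 11.32 and 11.24. Few markers of other cell types were described: none of 12 macrophage and blood markers was described, 1 of 11 of trophoblast, 2 of 12 of visceral endoderm, 2 of 12 of mesoderm and 3 of 12 of fibroblasts. Among the fibroblast markers Col1a2, a collagen chain, was detected in knock-down cells only (at least 1.31-fold higher, adjusted p = 0.171), while Thy1 differed by -0.17 and Twist1 by -0.11. Of 12 neuroectoderm markers 4 were described, 3 with a higher and 1 with a lower mean in the knock-down, and their values are given below. The summed linear intensity of the tested members was 317.1 and 383.7 in control and 437.6 and 345.8 in knock-down cells for fibroblasts, and 613.9 and 419.3 against 614.3 and 545.7 for neuroectoderm. The part of such cells in other results was not tested.

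Kdm3a itself was lower in the knock-down cells. Its brightest probe read 9.97 and 9.98 on the control arrays and 8.93 and 8.88 on the knock-down arrays. The groups do not overlap, and within each group the replicates are close to each other. The difference was -1.07 (SE 0.19, n = 2 per group), leaving 47.7% of the control level, with an unadjusted p of 1.80e-04 and a limma adjusted p of 0.123. It therefore did not pass the threshold of 0.05 that was applied across all genes. The 2 other detected Kdm3a probes gave -0.80 and -1.08, and the fourth probe was not detected on any array. Leaving out either array of either group kept the difference between -1.09 and -1.04. At the later stages the same probe differed by -1.73 (72 h) and -1.57 (6 d). The difference at 72 h minus that at 0 h was -0.66 (SE 0.27, adjusted p = 1.00).

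Only 6 of the 11621 genes tested passed the adjusted threshold in untreated cells (0.0516%). Insm1 and Gata6 rose (0.0172% of tested genes were called higher), and Ccnd1, Coa3, Krt17 and Gjb2 fell (0.0344% were called lower). At an unadjusted p under 0.05 there were 947 tested genes, 8.15% of all. The threshold was passed narrowly: the adjusted p was 0.0434 for 5 of the 6 and 0.0453 for Gjb2. None of the 6 kept it when any 1 of the 4 untreated arrays was left out, with adjusted p-values of 0.146 to 0.421, or when only the 4 untreated arrays were fitted. All 6 kept their direction in each of 19 other settings, but the sizes varied. The smallest fitted differences there were 0.92 for Insm1, 0.66 for Gata6 and -0.69 for Gjb2. They were -1.48 for Ccnd1, -1.31 for Coa3 and -1.07 for Krt17.

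**Figure D1:**
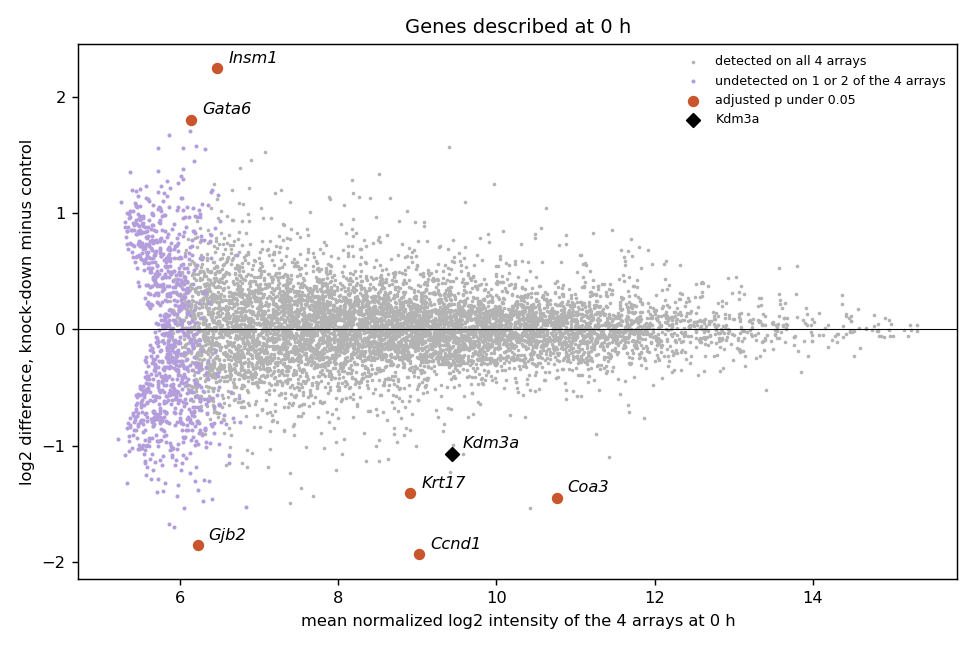
Each point is a gene described in untreated cells, with its mean normalized log2 intensity over the 4 arrays on the horizontal axis and the log2 difference of knock-down minus control on the vertical axis. Most genes lie close to 0, dim genes scatter more widely than bright ones, and Insm1, Gata6, Ccnd1, Coa3, Krt17 and Gjb2 are the 6 past the adjusted threshold, while Kdm3a at -1.07 is not.

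Insm1, on chromosome 2, encodes a zinc-finger repressor of endocrine and neuronal progenitors that is known to recruit the LSD1-CoREST complex. It read 5.40 and 5.31 in control cells, where it was not detected on either array, and 7.27 and 7.93 in knock-down cells. Both knock-down arrays lie far above both controls. The fitted difference was 2.24 (SE 0.31), and because the control was undetected the change is given as at least 3.88-fold higher. It rests on the only probe for this gene. Without knock-down replicate 2 the fitted difference was 1.91 (adjusted p = 0.421), and with a term for the 3 arrays of like background it was 1.92 (adjusted p = 0.0249), the only call left under that term. At 72 h and at 6 d it was detected on 1 knock-down array and on no control array, and no fold could be given.

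Of the other 8 described members of the list of neuroendocrine and neuronal factors, none had an unadjusted p under 0.05, a level that 8.53% of all described genes reached (4.4% higher and 4.14% lower). Stmn2, a regulator of microtubules in neurons, differed by 0.28, and Syp, a synaptic vesicle protein, by -0.34. Neurod1 and Nkx2-2 were not described. In the LSD1-CoREST list 8 of 12 members were described, and 2 of them had an unadjusted p under 0.05. Rcor1, the CoREST scaffold, read 9.97 and 10.16 in control and 9.22 and 9.45 in knock-down cells (difference -0.73, unadjusted p = 0.00643, adjusted p = 0.314). Its paralogue Rcor2 differed by -0.63 (unadjusted p = 0.0203, adjusted p = 0.456), and the catalytic subunit Kdm1a by -0.09. For Rcor1 and Rcor2 the groups do not overlap.

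Gata6, on chromosome 18, encodes the transcription factor that starts the primitive endoderm programme. It read 5.17 and 5.32 in control cells, undetected on both arrays, and 7.30 and 6.79 in knock-down cells. Both knock-down arrays are above both controls, but far below the levels that retinoic acid brings: control cells at 72 h read 12.00 and 11.87. The difference at 0 h was 1.80 (SE 0.24), given as at least 2.65-fold higher, while the control at 72 h was at least 78.3-fold above the control at 0 h (adjusted p = 8.23e-08). The second Gata6 probe was undetected on all 4 untreated arrays and differed by 0.01. Without knock-down replicate 2 the difference was 2.06, and without replicate 1 it was 1.54.

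The rest of the primitive endoderm list did not pass the test in untreated cells. Of its 18 members 8 were described, with 6 higher and 2 lower in the knock-down, and 1 (Gata6) had an unadjusted p under 0.05. Their median difference was 0.37, against 0.0052 over all described genes, and it ran from 0.14 to 0.60 when 1 array was left out. Sparc, a basement membrane protein, read 11.69 and 10.97 in control and 12.33 and 11.68 in knock-down cells, so the groups overlap (difference 0.67, unadjusted p = 0.118). Lama1, the laminin alpha chain of early basement membrane, differed by 0.49 (unadjusted p = 0.119). Gata4, Sox17, Pdgfra, Dab2, Foxa2 and Hnf4a, which define this cell type with Gata6, were not described on either group's arrays. Summed over the 17 tested members, the list's linear intensity was 8334 to 10711 on the control arrays and 10773 to 14728 on the knock-down arrays. More endoderm-like cells and more RNA per cell cannot be told apart in such samples, and their part in the Gata6 result was not tested.

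Of the parietal endoderm list 11 of 17 members were described, 6 higher and 5 lower, with none at an unadjusted p under 0.05. None of 27 Hox genes was described. Of the retinoic acid response list 6 of 17 were described, 4 higher and 2 lower. Crabp2 differed by -0.44 (unadjusted p = 0.0762, adjusted p = 0.712), with arrays that do not overlap. An unadjusted p under 0.05 was reached by 2 (8.53% of all described genes), both higher. They were Meis1, a homeobox cofactor (0.58, adjusted p = 0.474), and the receptor gene Rara (0.57, adjusted p = 0.395). Rara was undetected in the control, which gives at least 1.26-fold higher.

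Ccnd1, on chromosome 7, encodes cyclin D1, the partner of the kinases that drive cells out of G1 phase. It read 9.99 and 10.00 in control cells and 8.40 and 7.72 in knock-down cells. The controls are nearly identical, and the knock-down arrays lie well below them but apart from each other. The difference was -1.94 (SE 0.27), or 3.83-fold lower, and the other probes for the gene gave -2.20 and -1.20. Without knock-down replicate 2 it was -1.59, and without replicate 1 it was -2.28.

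At the later stages the Ccnd1 arrays of the 2 cell types lay close together, with knock-down minus control at -0.06 at both 72 h and 6 d. The control itself fell by 1.52 on the log2 scale between 0 h and 72 h (adjusted p = 0.00372), to 8.58 and 8.38, beside the 8.40 and 7.72 of untreated knock-down cells. The change in the knock-down effect from 0 h to 72 h was 1.87 (SE 0.38, unadjusted p = 4.76e-04), but its adjusted p was 1.00.

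Among 21 genes of the G1 cyclin and inhibitor list, 17 were described, 9 higher and 8 lower. With Ccnd1, 5 of them had an unadjusted p under 0.05, and the other 4 were higher in the knock-down. The share over all described genes was 4.4% in the higher and 4.14% in the lower direction. Cdkn1c, which encodes the imprinted kinase inhibitor p57, read 8.02 and 7.65 in control and 8.63 and 9.30 in knock-down cells (1.13, adjusted p = 0.271). Rb1, the retinoblastoma protein that cyclin D kinases phosphorylate, read 8.05 and 7.93 against 8.97 and 8.95 (0.97, SE 0.20, unadjusted p = 5.76e-04, adjusted p = 0.162). Cdkn1a (p21) differed by 0.76 and Cdkn1b (p27) by 0.68. In all 4 the groups do not overlap. Cdkn1a also counts in the p53 list below, and Cdkn1c in the list of imprinted genes. Over the list, 7 members had knock-down arrays wholly above the controls and 5 wholly below (20.7% and 19.5% of all described genes). The other D-type cyclins, Ccnd2 and Ccnd3, differed by -0.54 and 0.07, with overlapping arrays for Ccnd3.

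Genes of DNA replication and mitosis differed little. Of 26 listed, 21 were described, 6 higher and 15 lower, and none had an unadjusted p under 0.05. Differences ran from -0.27 (Rrm2, a ribonucleotide reductase subunit) to 0.06 (Cdc20, an activator of the anaphase-promoting complex), with a median of -0.04. That median was -0.15 to 0.04 when 1 array was left out, so its sign was not settled, and it was -0.25 with the term for the 3 arrays of like background. Mcm7, a subunit of the replicative helicase, differed by -0.25.

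Coa3, on chromosome 11, encodes an assembly factor of cytochrome c oxidase, the last enzyme of the mitochondrial respiratory chain. It read 11.50 and 11.47 in control cells and 9.97 and 10.11 in knock-down cells. The groups are far apart and the replicates close together. The difference was -1.45 (SE 0.20), or 2.73-fold lower, and the second probe gave -1.40. The difference was of like size after retinoic acid, at -1.47 (72 h) and -1.23 (6 d), and it differed from that at 0 h by -0.03 (SE 0.29) and 0.21 (SE 0.29), with adjusted p-values of 1.00 and 0.999. At the later stages its own adjusted p was 0.0916 and 0.159.

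Of 26 genes for cytochrome c oxidase subunits and assembly factors, 21 were described, and only Coa3 among them had an unadjusted p under 0.05. The next lowest was Cox11, a copper chaperone, at -0.35, and the highest was Surf1, an assembly factor, at 0.35. Cox14, the partner of Coa3 in the assembly of subunit MT-CO1, read 10.30 and 10.67 against 10.62 and 10.44, a difference of 0.04.

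Gjb2 encodes connexin 26, a gap junction channel of epithelia, on chromosome 14. It read 7.07 and 7.25 in control cells and 5.39 and 5.21 in knock-down cells, where it was not detected on either array. The groups do not overlap. The fitted difference was -1.86 (SE 0.27), given as at least 2.81-fold lower, from the only probe that any array detected. The direction turned at the last stage: knock-down minus control was -0.62 at 72 h, while at 6 d the gene was detected on both knock-down arrays (6.07 and 5.93) and on neither control array (4.67 and 5.41), at least 1.35-fold higher (adjusted p = 0.334). The effect at 6 d minus that at 0 h had an adjusted p of 0.0902, the smallest of any gene in that test. Of the 4 group means behind it 2 are not above background, so no size is given. No gene passed the test of a difference between stages: 409 had an unadjusted p under 0.05 for 72 h against 0 h, where the smallest adjusted p was 0.865, and 668 for 6 d against 0 h.

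Krt17 encodes an acidic keratin of stratified epithelia, on chromosome 11. It read 9.61 and 9.63 in control cells and 8.24 and 8.18 in knock-down cells, again with groups far apart. The difference was -1.41 (SE 0.18), or 2.66-fold lower. Retinoic acid took the control down by much more, to 5.77 and 5.72 at 72 h (control change -3.88, adjusted p = 5.32e-07). Krt42, a neighbouring family member on the same chromosome, differed by -1.13 (unadjusted p = 9.54e-04, adjusted p = 0.171), with its other probes at -1.15 and -0.97. Whether the probes of such similar keratins read each other's transcripts was not tested.

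Of 27 keratins and epithelial junction genes 10 were described, 5 higher and 5 lower. Apart from Gjb2 and Krt17 none had an unadjusted p under 0.05. Cdh1 (E-cadherin) read 10.86 and 10.87 against 11.33 and 11.30, and Cldn6, a tight junction claudin of embryonic epithelium, 10.52 and 10.51 against 11.30 and 11.20. Their arrays do not overlap, but the unadjusted p was 0.243 and 0.298.

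**Figure D2:**
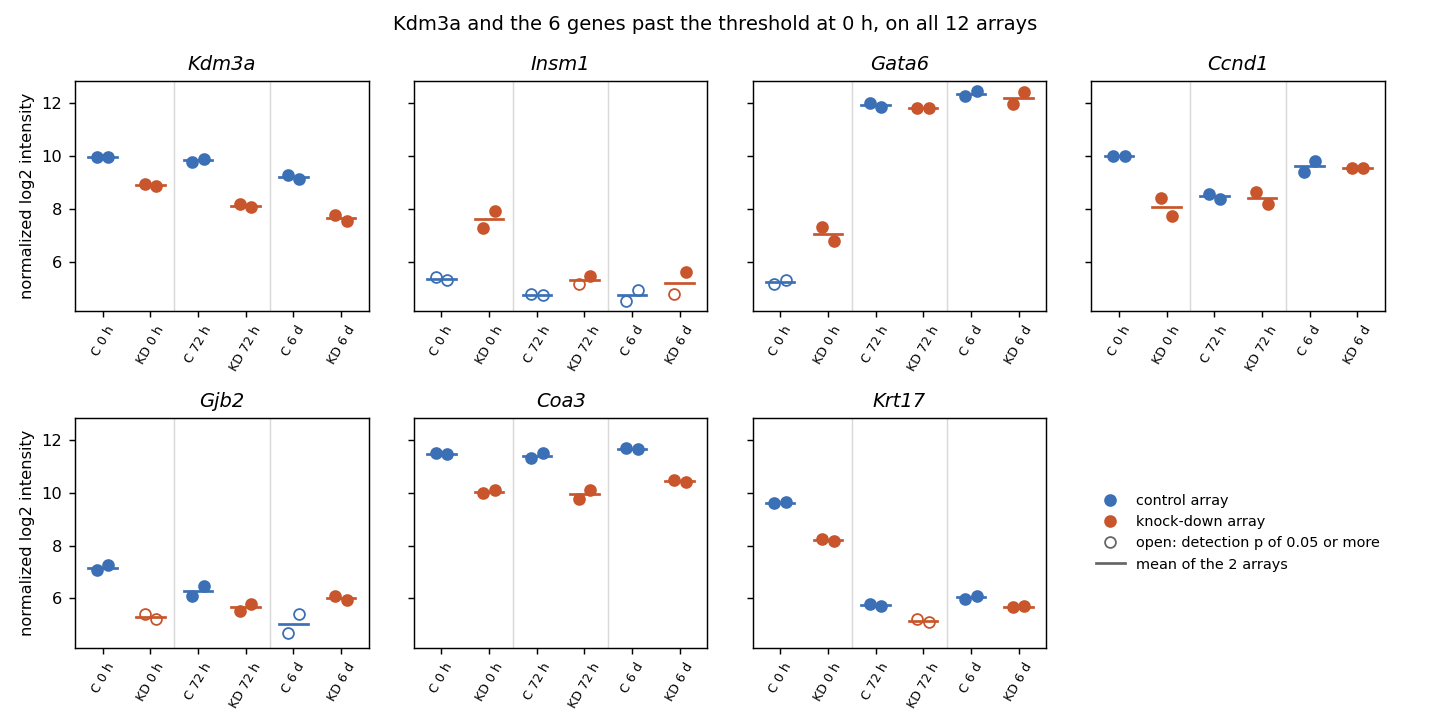
Normalized log2 intensity of Kdm3a and the 6 called genes on every array, in control (blue) and knock-down (orange) cells at 0 h, 72 h and 6 d, with a bar at the mean of the 2 arrays and open circles where the detection p-value was 0.05 or more. The separation of Kdm3a and Coa3 is seen at each stage, that of Ccnd1 and Gata6 at 0 h, and that of Gjb2 turns from lower at 0 h to higher at 6 d.

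The stretch before the annotated start is shown for the 2 called genes whose promoters could be matched in RefSeq (GRCm38.p6), Coa3 and Gjb2, to set the base composition of both side by side. Each run covers the 250 bases before the start, read 5′ to 3′ on the strand of the gene. Both lie on the minus strand, at chr11:101278949-101279198 and chr14:57104703-57104952. Capitals mark an E-box, the letters CACGTG, the same on both strands.
Coa3: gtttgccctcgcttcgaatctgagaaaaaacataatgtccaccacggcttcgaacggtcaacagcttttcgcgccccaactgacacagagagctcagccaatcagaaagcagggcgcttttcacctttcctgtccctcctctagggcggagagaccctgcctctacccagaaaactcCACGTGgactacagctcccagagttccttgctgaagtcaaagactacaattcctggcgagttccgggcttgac
Gjb2: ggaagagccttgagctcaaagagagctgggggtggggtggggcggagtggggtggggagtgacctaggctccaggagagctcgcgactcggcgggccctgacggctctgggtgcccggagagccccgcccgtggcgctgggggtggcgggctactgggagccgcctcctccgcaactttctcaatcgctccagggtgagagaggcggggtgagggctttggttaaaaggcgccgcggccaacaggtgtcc
The E-box of Coa3 begins 73 bases before the start, and these letters stand in 6.02% of 32851 such windows. The Coa3 window holds 12 CpG dinucleotides and the Gjb2 window 18. As many or more stand in 33.5% and 21.7% of windows, where the median is 6. Such a match describes the letters only.

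Beyond the 6 genes, further differences fell short of the adjusted threshold. Genes with uncharacterised symbols (Rik, Gm, LOC and accession-like names) were passed over. Of the rest, 50 higher and 50 lower were detected on all 4 arrays, with an unadjusted p under 0.01 and no overlap between the groups. The 10 largest of each direction, 20 in all, are named here. No overlap is common with 2 arrays a group: it held for 20.7% of described genes in the higher and 19.5% in the lower direction. Among genes detected on all 4 arrays, 30 were at least 2-fold higher and 30 at least 2-fold lower, and 90% of differences lay between -0.44 and 0.48.

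Soga3 came nearest on the higher side, reading 8.62 and 8.63 in control and 9.91 and 10.47 in knock-down cells (1.57, SE 0.24, adjusted p = 0.0810). It passed in several other settings, among them the authors' processed table. Next in size, Dmkn, a protein secreted by epidermis, differed by 1.52 and Sfn (stratifin), a checkpoint protein of epithelia, by 1.45. Epb41l1, a linker of membrane proteins to the spectrin skeleton, differed by 1.38, but its second detected probe gave 0.49. Plaur, the urokinase receptor, differed by 1.34. Synm, an intermediate filament protein, read 5.80 and 5.82 against 6.68 and 7.43 (1.25). Its second tested probe, undetected on every untreated array, gave 0.007. Anxa3, an annexin that binds membranes in response to calcium, read 9.32 and 9.36 against 10.55 and 10.63, and its 2 probes gave 1.25 and 1.28. Runx1t1, a transcriptional corepressor, differed by 1.21 by its brightest probe and by 0.35 and 0.27 by its others. Nptx2, a pentraxin of synapses, differed by 1.17 (SE 0.23, unadjusted p = 3.22e-04). In each of these genes both knock-down arrays are above both controls, as the choice of genes requires.

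On the lower side, Trh, the precursor of thyrotropin-releasing hormone, read 11.43 and 10.96 in control and 9.85 and 9.47 in knock-down cells (-1.54, unadjusted p = 6.86e-04, adjusted p = 0.166). Pdpn (podoplanin), a membrane mucin-like glycoprotein, read 8.14 and 8.13 against 6.47 and 6.82 (-1.49). Lefty2, a secreted inhibitor of Nodal, read 8.97 and 7.84 against 6.83 and 7.11, with controls that differ from each other by more than the knock-down arrays do (-1.43, adjusted p = 0.314). Serpinf1, a secreted serpin that inhibits blood vessel growth, differed by -1.36, though its second probe gave -0.22. Cpsf4l, Pkdcc (a secreted tyrosine kinase), Pga5 (a pepsinogen), B4galnt4 (a glycosyltransferase) and Tsks (a testis protein) differed by -1.15 to -1.21, and Krt42 by -1.13. B4galnt4 and Pkdcc were lower by their other tested probes too, which gave -0.84 and -1.34 for B4galnt4 and -1.62 for Pkdcc. The other tested probes of Cpsf4l gave -0.48 and -0.65.

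Some genes were detected in 1 of the 2 cell types only. Such a gene had to differ, so only the size is of interest. Uncharacterised symbols were passed over here too. The 5 with the smallest unadjusted p on the knock-down side were Csn3, which encodes kappa casein (at least 2.55-fold higher), Fbp2, the muscle fructose bisphosphatase (at least 2.75-fold), Lhfp (at least 2.26-fold), Olfr668, an olfactory receptor (at least 1.38-fold), and Zfp36l3, an RNA-binding protein of rodent placenta (at least 1.32-fold). Csn3 read 5.05 and 5.52 against 6.92 and 7.06, and its difference was also above 1 at 72 h (1.35) and 6 d (1.33). On the control side they were Ankrd27 (at least 2.15-fold lower), an endosomal trafficking protein, Evc, a protein of cilia (at least 1.91-fold), the growth factor gene Fgf1 (at least 1.77-fold), Slc39a3, a zinc transporter (at least 1.62-fold), and Rlbp1, a retinaldehyde-binding protein (at least 1.25-fold). Fgf1 read 6.75 and 6.23 against 5.06 and 5.14, and at 6 d, again undetected in the knock-down, it was at least 2.01-fold lower. At 72 h it was detected on 1 of the 2 knock-down arrays (-1.31). The adjusted p of these 10 genes was 0.118 to 0.129, so none was called.

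**Figure D3:**
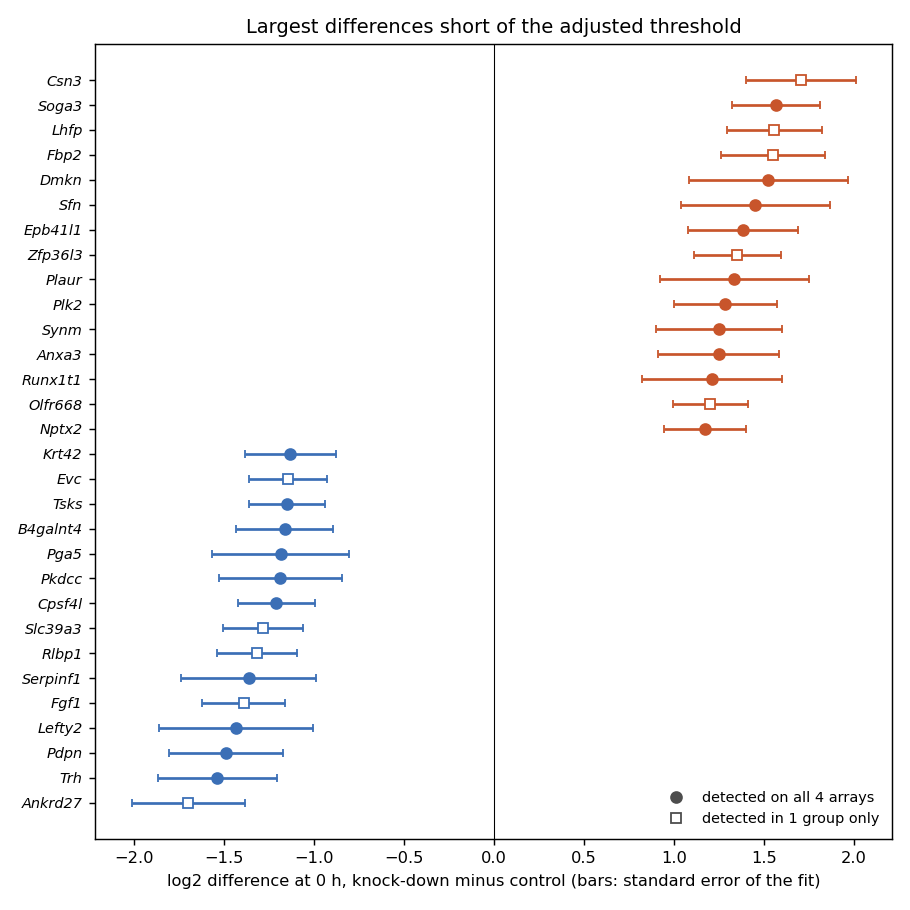
Log2 difference at 0 h, knock-down minus control, with the standard error of the fit as bars, for the 20 genes detected on all 4 arrays (filled circles) and the 10 detected in 1 cell type only (open squares). The filled circles run from -1.54 (Trh) to 1.57 (Soga3), the open squares are fitted against a group not above background and so have no order, and none of these genes passed the adjusted threshold.

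Genes of the p53 and apoptosis list were mostly higher in the knock-down cells. The transcription factor p53 answers DNA damage and other stress by switching on inhibitors of the cell cycle and promoters of cell death. Of 24 listed genes 19 were described, 14 higher and 5 lower, and none passed the adjusted threshold. At an unadjusted p under 0.05 there were 8 higher and none lower (4.4% and 4.14% of all described genes), and 13 had knock-down arrays wholly above the controls against none wholly below (20.7% and 19.5% of all described genes). Their median difference was 0.57, against 0.0052 over all described genes. The list was chosen with earlier results of these data known, so these counts describe its members and do not test it. Of the 19, 1 was detected in knock-down cells only. Left-out arrays gave a median of 0.45 to 0.58 with 6 to 8 members at an unadjusted p under 0.05, and without knock-down replicate 2 the values were 0.55 and 6.

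Plk2, a polo-like kinase induced by stress, read 7.66 and 7.40 in control and 8.68 and 8.95 in knock-down cells (1.29, SE 0.29, unadjusted p = 8.84e-04, adjusted p = 0.171). Pmaip1, the cell death protein Noxa, was undetected in the control and read 5.47 and 4.93 against 6.31 and 6.63, at least 1.78-fold higher. Both knock-down arrays of each lie above both controls. Apaf1, the core of the apoptosome, read 8.48 and 8.53 against 9.36 and 9.50 (0.92, adjusted p = 0.213), and Bbc3, the cell death protein Puma, 8.90 and 8.95 against 9.57 and 9.70 (0.71, adjusted p = 0.276). Mdm2, the ligase that degrades p53, read 11.48 and 11.15 against 11.99 and 12.20 (0.77, adjusted p = 0.541). Cdkn1a, the inhibitor that halts the cycle downstream of p53, read 8.69 and 8.79 against 9.35 and 9.65 (0.76, adjusted p = 0.314). Ei24 and Plk3 differed by 0.82 and 0.79. The lowest members were Rrm2b (-0.30), Tigar (-0.23) and Sesn2 (-0.15), none with an unadjusted p under 0.05.

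Promoter letters are shown for 2 of these genes, Plk2 as the largest difference of the list and Cdkn1a as the only described member whose window held a full p53 response element. Both lie on the plus strand of GRCm38.p6 (RefSeq), at chr13:110394794-110395043 and chr17:29090729-29090978. Capitals mark a cAMP response element, TGACGTCA, in Plk2 and both decamers of a match to the p53 response element in Cdkn1a. That match asked for 2 RRRCWWGYYY decamers without a mismatch, adjacent or with a short spacer between them. Here R is A or G, W is A or T, and Y is C or T.
Plk2: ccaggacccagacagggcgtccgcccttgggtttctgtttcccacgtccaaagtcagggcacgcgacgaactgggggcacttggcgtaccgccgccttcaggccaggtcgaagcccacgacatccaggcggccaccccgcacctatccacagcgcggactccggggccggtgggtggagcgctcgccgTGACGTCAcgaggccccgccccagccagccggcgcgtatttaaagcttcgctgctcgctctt
Cdkn1a: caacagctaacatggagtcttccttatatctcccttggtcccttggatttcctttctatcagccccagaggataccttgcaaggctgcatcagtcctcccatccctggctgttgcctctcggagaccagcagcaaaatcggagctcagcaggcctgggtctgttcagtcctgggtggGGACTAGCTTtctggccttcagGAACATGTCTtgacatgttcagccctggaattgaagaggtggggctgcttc
The element in Plk2 begins 62 bases before the start, and 1.55% of 32851 windows hold these letters on either strand. Of the 19 described members 14 had at least 1 window, and Cdkn1a was the 1 with a p53 element, which 21 of all windows hold (0.0639%). In Cdkn1a the letters tgacatgttc, which directly follow the last marked decamer, miss the pattern at 1 position and so stay in lower case. Which of these decamers p53 binds was not tested. The Cdkn1a window belongs to 1 of its annotated starts, and no match elsewhere says only that the letters are not in those windows.

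Imprinted genes, which are expressed from the copy of 1 parent, had higher means in the knock-down. This list too was chosen with earlier results of these data known. All 15 described of 22 listed differed upward, by 0.06 (Meg3) to 1.13 (Cdkn1c), with a median of 0.32. None passed the adjusted threshold, 4 had an unadjusted p under 0.05 (4.4% of all described genes were higher at that level), and 9 had knock-down arrays wholly above the controls (20.7% of all described genes). With 1 array left out, 12 to 15 were higher and 2 had an unadjusted p under 0.05. Grb10, an adaptor that restrains insulin signalling, read 8.26 and 7.88 against 8.77 and 8.85 (0.74, adjusted p = 0.314). Nnat (neuronatin) differed by 0.95 (adjusted p = 0.534) and Ndn (necdin), a growth suppressor of neurons, by 0.49 (adjusted p = 0.517). Igf2, the fetal growth factor, differed by 0.12.

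The pluripotency network was detected in both cell types. Of 30 listed genes 28 were described, 12 higher and 16 lower, with a median of -0.07, and none passed the adjusted threshold. At an unadjusted p under 0.05, 3 were lower and 1 was higher (4.14% and 4.4% of all described genes). Knock-down arrays lay wholly below the controls for 12 members and wholly above for 6 (19.5% and 20.7% of all described genes). Klf4, a factor of naive pluripotent cells, read 9.08 and 9.30 in control and 8.11 and 8.03 in knock-down cells (-1.12, SE 0.28, adjusted p = 0.225). Nanog read 12.22 and 12.23 against 11.76 and 11.73, a difference of -0.48 (adjusted p = 0.874), and Esrrb 13.62 and 13.71 against 13.15 and 13.14 (-0.52, adjusted p = 0.875). Sox2 differed by -0.14 and Pou5f1 by -0.22, both with knock-down arrays below the controls by less than the standard error of the fit. Dnmt3l, a cofactor of DNA methylation, differed by 0.45.

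Members of the Nodal and BMP pathway differed in both directions. Nodal and the BMPs are secreted signals of the early embryo, Lefty1 and Lefty2 inhibit Nodal, and the Id genes are direct targets of BMP. Of 22 listed 13 were described, 7 higher and 6 lower, and 6 had an unadjusted p under 0.05 (8.53% of all described genes) but none an adjusted p under 0.05. The inhibitor gene Lefty1 read 10.53 and 9.37 in control and 9.09 and 8.82 in knock-down cells (-0.998, adjusted p = 0.376), while Nodal read 11.72 and 11.08 against 12.20 and 11.86 (0.63, adjusted p = 0.592). Among BMP targets, Id1 read 9.98 and 10.25 against 10.91 and 11.40 (1.04, adjusted p = 0.238), and Id2 6.56 and 6.67 against 7.36 and 8.21 (1.17, adjusted p = 0.251). Id3 differed by -0.20. The inhibitory Smad6 was undetected in the control, which gives at least 1.14-fold higher. Lefty1 and Lefty2 also count in the pluripotency list.

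Other signalling lists held few nominal differences. All 11 described immediate early genes of 24 listed had a higher mean in the knock-down, by 0.05 (Myc) to 0.60 (Per1), yet none had an unadjusted p under 0.05. Their median was 0.31 and ran from 0.17 to 0.49 when 1 array was left out, with 7 to 11 of 11 higher. In the FGF list 12 of 20 were described, and Dusp6, a phosphatase that switches off ERK, differed by 0.68 (adjusted p = 0.531) and the ligand gene Fgf17 by -0.85 (adjusted p = 0.334). Of 8 described Wnt targets of 19 listed, Axin2, a feedback inhibitor, differed by 0.99 (adjusted p = 0.365) and Ccnd1, named above, was lower. Of the 4 described neuroectoderm markers, 3 had a higher mean and 1 a lower one, with a median of 0.68, and 2 had an unadjusted p under 0.05 (8.53% of all described genes). These were Nes (nestin), at 0.98 (adjusted p = 0.437), and the homeobox gene Otx2, at 0.96 (adjusted p = 0.229). Map2, a microtubule protein of neurons, differed by 0.39 with overlapping arrays, and Ncam1, a neural adhesion molecule, by -0.58 (adjusted p = 0.869) with arrays that do not overlap. Sox1 and Pax6 were not described.

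Lists tied to the known roles of Kdm3a showed no called gene. Among 14 genes of fat and energy metabolism that Kdm3a is known to regulate elsewhere, 7 were described, 6 lower and 1 higher, with a median of -0.44 and none at an unadjusted p under 0.05. Knock-down arrays lay wholly below the controls for 5 of the 7 and wholly above for none (19.5% and 20.7% of all described genes). With 1 array left out the median ran from -0.65 (without knock-down replicate 1) to -0.27 (without replicate 2). Fabp3, a fatty acid carrier, read 9.23 and 9.13 against 8.64 and 8.39 (-0.67, adjusted p = 0.640). Adamts9, a protease, was detected in control cells only, and Cpt1b, the muscle carrier of fatty acids into mitochondria, differed by -0.44. Of 18 male germ cell genes 2 were described, 1 higher and 1 lower. Both had an unadjusted p under 0.05 (8.53% of all described genes). They were the homeobox gene Rhox5 (0.46, adjusted p = 0.604) and Tex101, a germ cell surface protein. Tex101 was undetected in knock-down cells (at least 1.13-fold lower, adjusted p = 0.144).

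No enzyme of the same histone mark was called, Kdm3a included. Of the 11 demethylases listed 8 were described, and Kdm3a was the 1 with an unadjusted p under 0.05. Its paralogue Jmjd1c differed by 0.06, Kdm4c by 0.10 and Kdm4a by -0.32. All 10 described methyltransferase and HP1 genes of 14 listed lay between -0.17 (Setdb1) and 0.43 (Prdm2), with none at an unadjusted p under 0.05. Genes of cholesterol synthesis had 12 of 14 described members lower, with a median of -0.21 that ran from -0.35 to -0.11 when 1 array was left out. Knock-down arrays lay wholly below the controls for 7 members and wholly above for none (19.5% and 20.7% of all described genes). Sc5d, a sterol desaturase, was at -1.01 (adjusted p = 0.456), the 1 member with an unadjusted p under 0.05. None of 17 described hypoxia and glycolysis genes of 25 listed had an unadjusted p under 0.05. In the interferon list 7 of 20 were described, and Irf1, a transcription factor of this response, differed by -0.71 (adjusted p = 0.338).

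**Figure D4:**
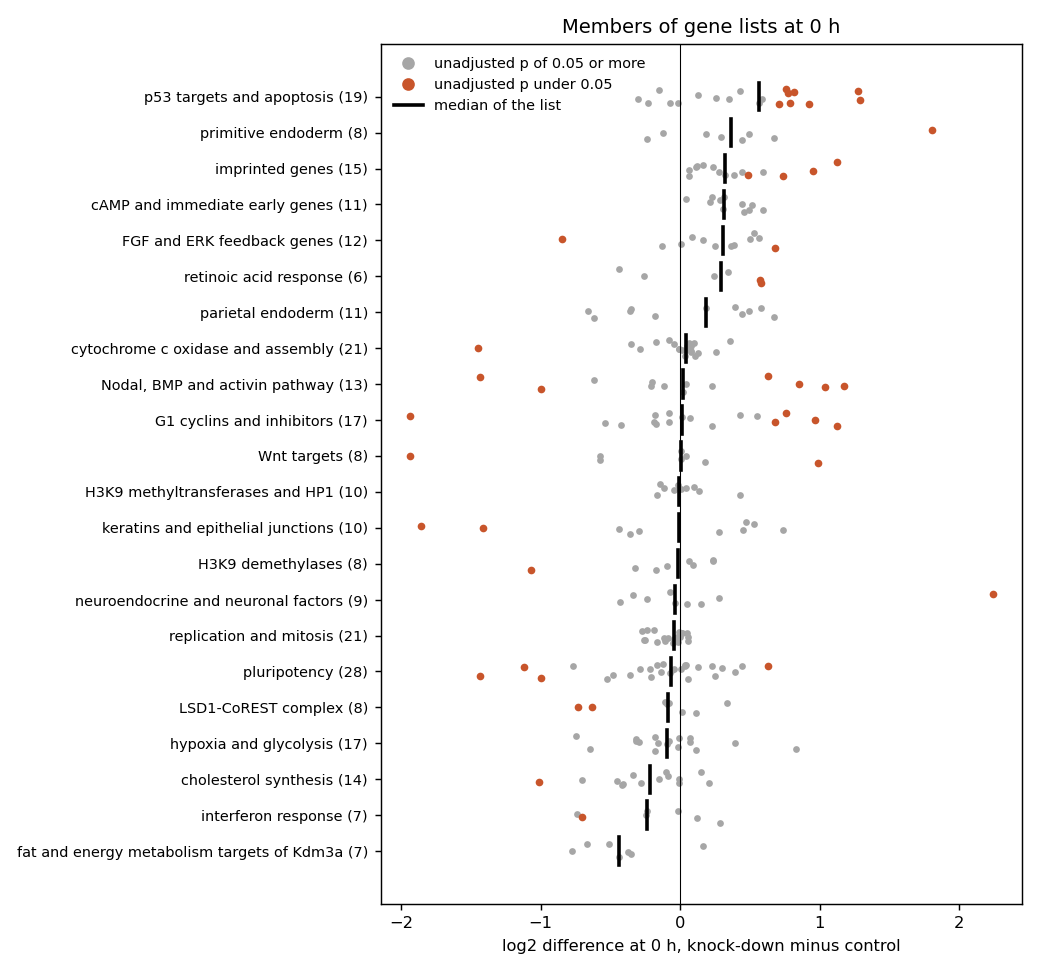
Log2 differences at 0 h, knock-down minus control, of the described members of each list with at least 5 of them (number in brackets), with the list median as a black bar and members of unadjusted p under 0.05 in orange. The p53 list has the highest median (0.57) and the Kdm3a metabolic targets the lowest (-0.44), and the orange points of the p53 and imprinted lists lie to the right of 0. The lists were chosen with earlier results of these data known.

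The later stages, on arrays other than those at 0 h, show which differences recur. Of 280 described genes with an unadjusted p under 0.01 at 0 h, 182 (65.0%) had the same sign at 72 h and 188 (67.1%) at 6 d. Over all described genes the share was 60.8% and 60.5%. Turned to the direction at 0 h, their median difference was 0.14 at 72 h and 0.18 at 6 d, against a median size of 1.00 at 0 h, a size that their selection raises.

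A total of 27 genes, chosen here after their values were seen, had an unadjusted p under 0.01 at 0 h and under 0.05 with the same sign at both later stages. Among them are Kdm3a, Coa3, Fgf1, Pga5 and Rcor1 on the lower side, and Csn3, Nptx2, Synm, Cdkn1c, Rb1, Apaf1, Ei24 and Plk3 on the higher side. The share of all described genes that passed at both later stages was not counted. The tests of a gene at each stage share the estimate of its spread, so they are not independent. Nptx2 differed by 1.17, 0.98 and 1.25 at 0 h, 72 h and 6 d, and Synm by 1.25, 1.15 and 1.495. Rb1 differed by 0.97, 0.63 and 0.74, and Cdkn1c by 1.13, 0.84 and 1.09. Rcor1 differed by -0.73, -0.65 and -0.85.

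**Figure D5:**
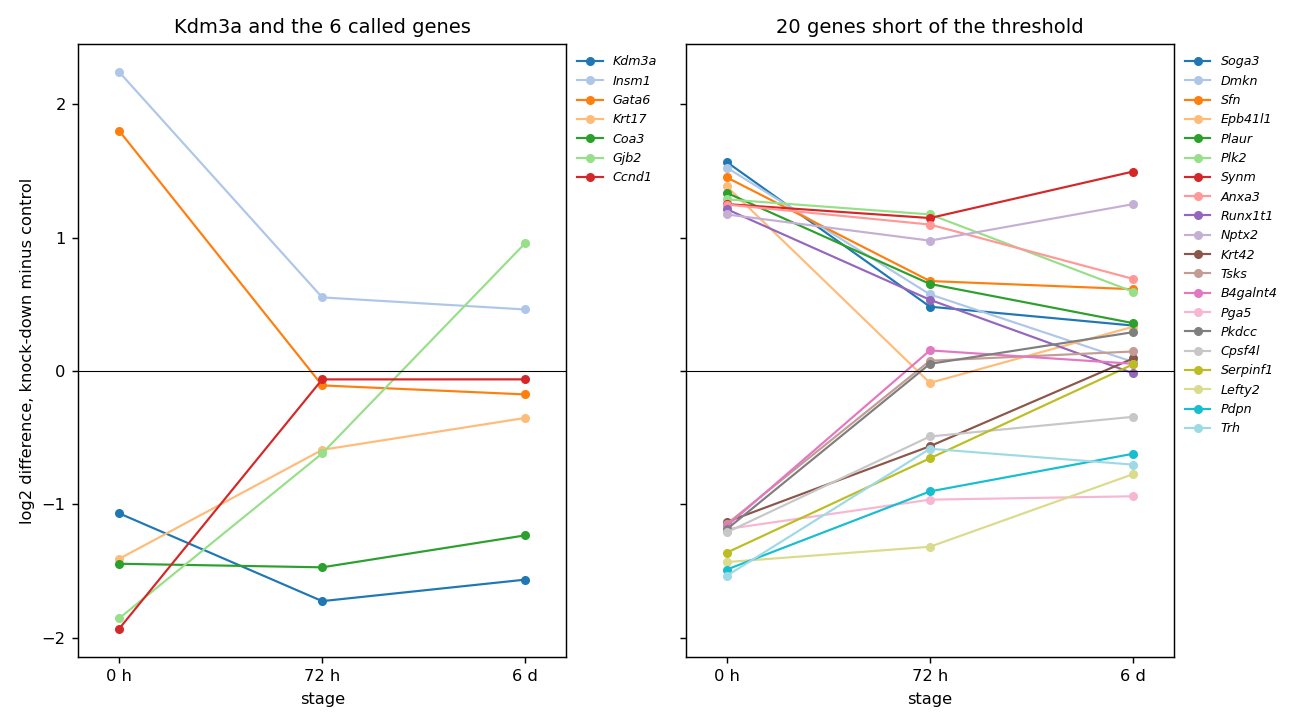
Log2 difference of knock-down minus control at 0 h, 72 h and 6 d for Kdm3a and the 6 called genes (left) and for the 20 largest differences short of the threshold (right). The lines of Insm1, Gata6, Gjb2, Krt17, Sfn, Tsks and Runx1t1 include fitted differences against a group not above background. Coa3 and Kdm3a stay below -1 at the 3 stages, Ccnd1 moves from -1.94 to -0.06, and Synm and Nptx2 stay near or above 1.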

How the data were processed

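The authors deposited non-normalized linear intensities of 45281 probes on 12 Illumina bead arrays, with a detection p-value for each, per the file headers. Per the labels' protocols, RNA was purified with Tripure and RNeasy, and biotinylated cRNA was hybridised. Which software summarised the beads is not stated in the labels or headers. The authors' processed table, used as an alternative, holds quantile normalized intensities (linear scale, column medians 184.1 to 184.4, no centring).

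Background was removed with the nec function of limma (limma 3.58.1, R 4.3.3, offset 16), and values were taken to log2 and quantile normalized. The 21525 probes detected (p under 0.05) on 2 or more of the 12 arrays were kept and named through the platform annotation. Of those kept, 3378 had no single symbol, and the brightest named probe stood for each gene. Over all 45281 probes, 34885 had 1 symbol, 18 several and 10378 none, and 34807 of those with 1 symbol matched RefSeq. A mean per group was fitted over 12 arrays (lmFit, eBayes, 6 residual and 5.01 prior degrees of freedom), with Benjamini-Hochberg adjustment over 11621 genes. The 6 groups share 1 estimate of the spread. A group undetected on both arrays has only a bound: its fold is "at least", against the lowest detected signal of each array or the probe's own value, whichever is higher. The detected group enters by the mean of its arrays, so the bound does not allow for the spread between them. The offset shrinks the log2 differences of dim genes.

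Named are Kdm3a, all called genes, the 10 largest uncalled differences of each direction (detected on all 4 arrays, unadjusted p under 0.01, no overlap), the 5 of each direction with the smallest unadjusted p among those detected in 1 group, and up to 4 members of each list. Genes with uncharacterised symbols (Rik, Gm, LOC and accession-like names) were passed over among the uncalled genes named outside the lists. Further list members were named after their values were seen. Members and lists were chosen with earlier results of these data known. Alternatives covered background, normalization, filters, probes, spread, a replicate block and left-out arrays.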

Additional observations from a re-analysis of the deposited data

How the results depend on the processing

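In untreated cells 6 genes passed the adjusted threshold. The count was 0 (range 0 to 0) when any 1 of the 4 arrays was left out, where the lone array of a group is assumed to vary like the other groups (733 to 988 genes then had an unadjusted p under 0.05). It was also 0 with only the 4 arrays at 0 h (1078 at an unadjusted p under 0.05) and with every probe on its own (1645 probes at that level). It was 3 with no filter (Krt17, Gata6 and Coa3), where more genes are tested. A term for the 3 arrays of like background, chosen after the data were seen, left 1 (Insm1). The other settings gave 5 to 8. No background correction and the authors' processed table called 6 genes each, of which 3 (Krt17, Coa3, Ccnd1) were shared with the main result. Kdm3a, at -0.87, passed in both of these (adjusted p = 0.0186 in each) and in no other of 19 settings, where its adjusted p was 0.0580 to 0.465. Why these settings differ was not tested. Median centring turned 4746 genes higher and 6875 lower, against 5834 and 5787. No setting called an interaction with either later stage.

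Same-numbered arrays were not treated as pairs in the main fit. Their deviations from the group means correlated at -0.11 to 0.54 over the 15 pairs of groups. The value was 0.14 between the groups at 0 h and 0.54 between those at 6 d. Untreated knock-down cells gave 0.28 with the control and 0.26 with the knock-down at 6 d. Some same-numbered arrays thus shared deviations, and whether they shared a batch was not tested. With the replicate block the count was 6, with the same 6 genes.

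Of 123 named genes other than Kdm3a, 111 kept their sign in the 19 settings. With 1 array left out in turn, signs turned for Amn (range -0.24 to 0.64, and -0.13 without knock-down replicate 2), Egln3 (-1.36 to 0.080), Kdm4a (-0.80 to 0.15), Kdm7a (-0.11 to 0.59), Lrp2 (-0.46 to 0.21), Map2 (-0.071 to 0.86), Phf2 (-0.16 to 0.63, and -0.12 without control replicate 2), Twist1 (-1.10 to 0.87) and Zmym2 (-0.060 to 0.28, and -0.014 without knock-down replicate 1). With the mean of probes they turned for Gse1 (-0.099), Kdm4a (0.017) and Tyms (0.11), and with the term for the 3 arrays for Dll1 (0.055), Lrp2 (0.31) and Twist1 (0.13). None of these genes was called. With 2 arrays a group, a difference of the size of the gap between replicates is not detectable.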
